A study of Mus musculus with 18 samples.

Results

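The mitochondrial ribosomal protein genes are the genes named Mrpl or Mrps with a number and, in some, a letter. They were chosen by their symbols alone, with earlier results of these data already known. Of them 78, 49 Mrpl and 29 Mrps genes, occur in all 5 deposited comparisons. The comparisons of stages and of regions list 27179 genes, and that of mutants lists 35729 transcripts. RNA of motor neurons (MNs) sorted from mouse spinal cord was sequenced in 18 samples. At p8, 3 brachial, 3 thoracic and 3 lumbar samples came from Chat-IRES-Cre::Ai9 animals, in which tdTomato marks every cell that has made Cre from the locus of the acetylcholine-synthesizing enzyme, MNs and other cholinergic cells included. At e12.5, 3 samples labelled Hoxc8 MNΔ came from brachial cord of Olig2-Cre::Hoxc8 fl/fl embryos with the Mnx1-GFP reporter, and 6 samples labelled wild type came from brachial cord with the same reporter. In the study the controls of the mutants were Hoxc8 fl/fl without Cre, and which of these 6 samples carried that allele is not given. Each p8 sample and each e12.5 sample of the stage comparison pooled several spinal cords, per the methods, and pooling in the mutants is not given in the sources used here. Olig2-Cre acts in MN progenitors, and Olig2 is also made by progenitors of oligodendrocytes. Sorting thus rested on tdTomato at p8 and on GFP at e12, so the reporter and the stage cannot be told apart.

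Mitochondria carry their own ribosome, which translates the few mRNAs of mitochondrial DNA, all of them for subunits of the respiratory chain and ATP synthase. Its RNAs are made inside the organelle, whereas every one of its proteins is encoded in the nucleus, made in the cytosol and imported. The large subunit joins amino acids and threads the new chain through an exit tunnel held against the inner membrane, and the small subunit reads the mRNA. Many of the proteins have a counterpart in the bacterial ribosome, and others were added during the evolution of mitochondria.

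The members lie on 17 chromosomes. Of the 78, 51 encode proteins of the large subunit (Mrps18a and Mrps30 among them, whose products sit there despite their symbols), 26 encode proteins of the small subunit, and Mrps36 encodes a protein that is now known as part of the α-ketoglutarate dehydrogenase complex. Promoter windows of 300 bases (250 before to 50 after the start) are given in RefSeq (GRCm38.p6) for 69 members, 75 windows in all. They were searched on both strands for 3 motifs of factors known to act on nuclear genes of mitochondria: the ETS motif CCGGAAG that GABP binds, and motifs of NRF1 and YY1, each matched exactly. The ETS motif was in 26 of the 75 windows (34.7%), against 8.86% of all 32851 windows and 11.6% of those of protein-coding genes. The NRF1 motif was in 3 of the member windows, against 0.971% of all windows, and the YY1 motif in 5 (6.67%), against 0.852% of all. A window can hold more than 1 of the motifs, and a match of letters is no evidence of binding.

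The windows of Mrpl33 and Mrps14, the members with the smallest p among those higher at p8, and of Mrpl50, with the smallest p among those higher at e12, are shown 5′ to 3′ with the ETS motif in capitals. Mrpl33 (chr5:31613701-31614000, plus strand) holds it once, close to the start, and neither Mrps14 (chr1:160194965-160195264, plus strand) nor Mrpl50 (chr4:49521034-49521333, minus strand) holds any of the 3.
Mrpl33: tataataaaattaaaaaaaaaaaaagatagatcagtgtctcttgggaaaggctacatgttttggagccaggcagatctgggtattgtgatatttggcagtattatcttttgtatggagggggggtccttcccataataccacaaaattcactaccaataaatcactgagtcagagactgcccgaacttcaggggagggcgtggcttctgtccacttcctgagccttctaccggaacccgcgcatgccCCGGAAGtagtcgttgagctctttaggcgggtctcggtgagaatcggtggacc
Mrps14: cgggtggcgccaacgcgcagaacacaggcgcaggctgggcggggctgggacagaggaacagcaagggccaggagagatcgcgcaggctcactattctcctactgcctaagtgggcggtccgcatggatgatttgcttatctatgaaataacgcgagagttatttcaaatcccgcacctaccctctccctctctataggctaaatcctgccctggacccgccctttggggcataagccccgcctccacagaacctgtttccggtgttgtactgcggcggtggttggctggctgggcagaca
Mrpl50: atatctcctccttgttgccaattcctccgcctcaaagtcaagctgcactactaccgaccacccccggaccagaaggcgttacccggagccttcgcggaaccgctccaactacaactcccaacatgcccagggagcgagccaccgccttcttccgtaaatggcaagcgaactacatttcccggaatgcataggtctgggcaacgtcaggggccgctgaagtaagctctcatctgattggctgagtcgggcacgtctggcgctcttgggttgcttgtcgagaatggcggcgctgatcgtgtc

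The comparison of p8 with e12 asks how the profile of brachial MNs differs between postnatal and embryonic life. On the scale of the deposited table, though not with both stages scaled to the same sum, most mitochondrial ribosomal protein genes were higher at p8: of 77 members with a p-value, 45 were higher at p8, 4 at e12, and 28 did not pass the test (DESeq2 Wald test, Benjamini-Hochberg adjusted p under 0.05). Of all 18787 genes tested, 23.0% passed in the direction of p8 and 24.8% in that of e12. The members had a median log2 fold change of p8 over e12 of 0.996, and genes whose base mean (the mean normalized count over all samples) was 10 or more had one of 0.02, and 61 of the 78 members lay above 0. Among called members, 38 differed by more than 2-fold in the direction of p8 and 2 in that of e12.

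The direction depends on how the stages are scaled to each other, since the sum over all genes was larger at p8 by 1.23 on the log2 scale. The members' levels summed to 62161 normalized counts at p8 and to 31113 at e12, or 0.172% of everything counted at p8 and 0.202% at e12. With both stages scaled to the same sum, 7 members were higher at p8 and 24 were higher at e12, against 11.7% and 44.3% of all genes, and the members' median became -0.24, with the median of all genes at -1.21. Oligodendrocyte markers took up much of the p8 sum: 8 of them, Mbp among them, held 43.8% of it, against 0.00959% of the e12 sum, and all 8 were higher at p8. With these 8 genes left out of the sums, the members held 0.305% at p8 and 0.202% at e12, and 28 were called in the direction of p8 and 11 in that of e12, against 18.5% and 30.7% of all genes. A member's distance from the median gene is the same under these scalings, which were added after the data had been seen. The sums rest on levels solved with 3 p8 and 6 e12 samples. With 3 and 3, as the methods state, the members' levels summed to 54090 at p8 and 28834 at e12. Neither scaling to a sum was repeated with those weights, so its counts and the sign of its median may differ.

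The other cell type markers that moved between the stages were tested in the same table. All 5 microglia markers were higher at p8 (summed level 20105 at p8 and 63.8 at e12), and so were all 4 endothelial markers (2569 at p8 and 140.4 at e12). Of 5 astrocyte markers 2 were higher at p8, 1 did not pass the test and 2 had no p-value. All 5 neuron markers, which include Map2 and Mapt, were lower at p8 (3409 at p8 and 57952 at e12). The 6 motor neuron markers together summed to 1133 at p8 and 7236 at e12. Of these 6, 3 were lower at p8 and 3 did not pass the test, and 1 had a fold change above 0 (log2 0.55). Isl1 was at 0.956 normalized counts at p8 and 469 at e12, and a level worked out from a fold change cannot show that a gene was absent. The sorted p8 samples thus held much RNA of genes that define oligodendrocytes. In RNA of many cells, fewer cells of a type and less RNA per cell cannot be told apart, and the part of other cell types in the members' differences was not tested.

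The table holds no values per sample, so each level is a stage mean worked out from base mean and fold change, taking 3 p8 and 6 e12 samples as the labels list them, without an SD. At p8 the 77 members whose base mean was at least 10 lay between 96.2 and 2506 normalized counts (median 668). At e12 they lay between 43.1 and 792 (median 359.8). Mrpl36 alone was close to 0, with 1.09 normalized counts at p8 and 0.145 at e12 and an interval too wide to give a direction. Its base mean was 0.461 in this comparison and 249 in that of mutants, also at e12, so the value near 0 need not mean that the gene was silent.

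**Figure D1:**
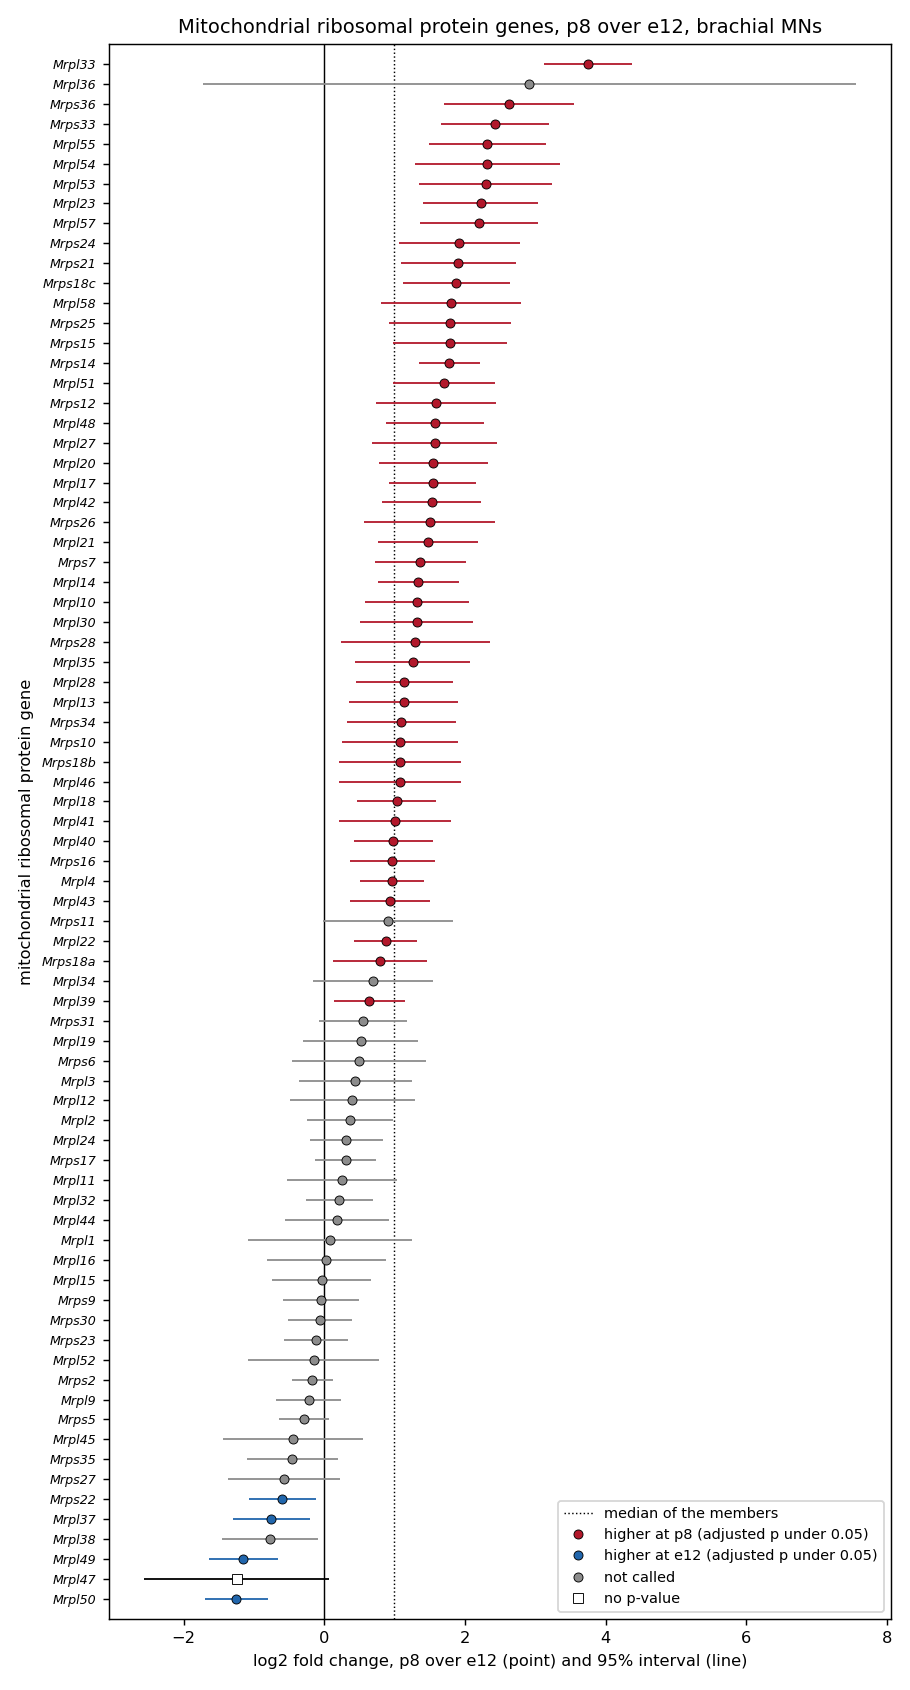
Log2 fold change of p8 over e12 (horizontal axis, deposited scale) for each of the 78 members (rows, in order of fold change); points are fold changes, lines 95% intervals and colours the calls at an adjusted p under 0.05. The dotted line marks the members' median of 0.996 (it would be -0.24 with both stages scaled to the same sum), Mrpl33 lies farthest to the right and Mrpl50 farthest to the left.

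Mrpl33, on chromosome 5 from 31613951 to 31622644 of GRCm38, encodes a large subunit protein with a counterpart in bacteria and had the highest fold change of the called members. It was at 2506 normalized counts at p8, against 187 at e12, a 13.4-fold difference (log2 3.74, 95% interval 3.12 to 4.37, adjusted p = 3.51e-30). Its p-value was the smallest of all members, and 22.4% of its exon bases lie in another annotated gene, Gm43809.

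The next smallest p-values belonged to Mrps genes. Mrps14, on chromosome 1 from 160195215 to 160201186, encodes the counterpart of bacterial S14 and had 699 at p8 and 204 at e12 (log2 1.78, interval 1.34 to 2.21, adjusted p = 1.45e-14). Mrps33, a protein without a bacterial counterpart, had 422 at p8 and 78.4 at e12 (log2 2.43, interval 1.66 to 3.20, adjusted p = 3.65e-09). Mrps36, of the α-ketoglutarate dehydrogenase complex, had 267 at p8 and 43.1 at e12 (log2 2.63, interval 1.71 to 3.56, adjusted p = 1.38e-07).

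Of the large subunit, Mrpl55, the counterpart of bacterial L31, was at 850.3 at p8 and 170.1 at e12 (log2 2.32, adjusted p = 2.17e-07). Mrpl23, which lines the exit tunnel, was at 594 at p8 and 127 at e12 (adjusted p = 4.37e-07). Mrpl57 was at 1530.1 at p8 and 332 at e12 (adjusted p = 1.18e-06), and Mrpl17 at 1274 at p8 and 438 at e12 (adjusted p = 4.47e-06). Pseudogenes named after Mrpl23 and Mrps36 are annotated, and reads may be shared with them. These 8 genes have the smallest p among members higher at p8. With both stages scaled to the same sum, 7 of the 8 remained higher at p8, and Mrpl17 was no longer called (log2 0.31).

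The 4 members called higher at e12 all encode proteins without a bacterial counterpart. Mrpl50, on chromosome 4 from 49512597 to 49521083, had 289.7 normalized counts at p8 and 688 at e12 (log2 -1.25, interval -1.70 to -0.80, adjusted p = 2.85e-07), and Mrpl49 had 286 at p8 and 633 at e12 (log2 -1.15, interval -1.64 to -0.66, adjusted p = 1.99e-05). Smaller differences were seen in Mrpl37 (468 at p8 and 787 at e12, adjusted p = 0.0184) and Mrps22 (232 at p8 and 349 at e12, adjusted p = 0.0300). Mrpl38 fell just short (326 at p8 and 556 at e12, adjusted p = 0.0571), and it was called with the authors' own adjustment and with genes of low base mean left out. Mrps5, Mrps27 and Mrps35 had lower levels at p8 without passing the test (adjusted p = 0.207, 0.255 and 0.274). Mrpl47, an exit tunnel protein, has no p-value in the deposited table (log2 -1.25, interval -2.56 to 0.06), and 18.1% of its exon bases lie in other genes, Actl6a and Ndufb5.

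Of the 28 members that were not called, 13 had an interval within a log2 fold change of 1 either way, so for these a 2-fold difference on the deposited scale lies outside the interval. For the other 15 the interval takes in such a difference.

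Both subunits had more genes higher at p8 than at e12 on the deposited scale. Of 50 large subunit genes with a p-value, 29 were higher at p8 and 3 were higher at e12 (median log2 0.97 over 51), and the 26 of the small subunit held 15 higher at p8 and 1 higher at e12 (median 1.08). Genes with a bacterial counterpart had a median of 0.998 in the large subunit (16 of 29 higher at p8, none at e12) and 1.19 in the small subunit (10 of 16 higher at p8, none at e12). Without a counterpart the medians were 0.93 in the large subunit (13 of 21 higher at p8, 3 at e12) and 0.81 in the small subunit (5 of 10 higher at p8, 1 at e12). Differences between these classes were not tested, since genes are not replicates.

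Some members with a known place in the large subunit are given as examples, and differences between them were not tested. In the stalk of the large subunit, where translation factors dock, Mrpl10 was called (1453 at p8 and 582 at e12, adjusted p = 0.00158), whereas Mrpl11 (941 at p8 and 788 at e12) and Mrpl12 (549 at p8 and 417 at e12) were not. Around the centre that joins amino acids, Mrpl27 was called (798 at p8 and 269 at e12, adjusted p = 0.00158), and Mrpl2, Mrpl3 and Mrpl16 had log2 fold changes of 0.37, 0.44 and 0.03 without a call. Of proteins at the exit tunnel, Mrpl23 and Mrpl22 were called (log2 2.22 and 0.87), and Mrpl24 (0.31) and Mrpl45 (-0.44), which anchors the ribosome to the inner membrane, were not.

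In the small subunit, Mrps12, which shapes the decoding site, was at 1022 at p8 and 340.5 at e12 (adjusted p = 8.73e-04), and Mrps7, of the head, at 1902 at p8 and 737 at e12 (adjusted p = 1.23e-04). Mrps11, of the platform, was not called (635 at p8 and 338 at e12, adjusted p = 0.101). The 3 paralogs named after S18 were all called, with log2 fold changes of 1.88 for Mrps18c (adjusted p = 5.90e-06) and 1.08 for Mrps18b (adjusted p = 0.0339). Mrps18a, whose product sits in the large subunit, had 0.79 (adjusted p = 0.0427). Of the 3, only Mrps18c is classed here as having a bacterial counterpart. Reads may be split between paralogs, and 59.1% of the exon bases of Mrps18b lie in another annotated gene.

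Mrpl58, a peptidyl-tRNA hydrolase that frees stalled mitochondrial ribosomes, had 1858 at p8 and 534 at e12 (log2 1.80, interval 0.81 to 2.79, adjusted p = 0.00119). Mrpl44, which has an RNase III fold, had 309 at p8 and 273 at e12 (log2 0.18, interval -0.56 to 0.92, adjusted p = 0.777). Mrps30, of the large subunit, had 414 at p8 and 432 at e12 (log2 -0.06, interval -0.52 to 0.39, adjusted p = 0.881).

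The remaining 20 members, outside the rule for naming genes, followed the same range. Of these, 15 were higher at p8 on the deposited scale, with log2 fold changes between 0.93 and 2.30, and none at e12. The highest of them was Mrpl53 (1724 at p8 and 351 at e12), named here for its overlap, since 100% of its exon bases lie in other annotated genes and the reads of these cannot be told apart. The 5 that were not called had log2 fold changes between -0.17 and 0.55. In all, 16 members share more than 10% of their exon bases with another gene.

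Although the proteins are built into the same particle, their mRNA levels per kilobase of exon spanned a wide range. Mrpl33 had the highest at p8, with 5243 normalized counts per kilobase at p8 and 391 at e12. By the base mean it was followed by Mrpl34 (2110.3 at p8 and 1304 at e12), Mrpl20 (2481 at p8 and 846 at e12), Mrpl54 (2976 at p8 and 596 at e12) and Mrps21 (2686 at p8 and 716 at e12). At the low end were Mrps17 (18.9 at p8 and 15.3 at e12), Mrpl1 (50.8 at p8 and 48.0 at e12), Mrps35 (48.6 at p8 and 66.4 at e12) and Mrpl47 (28.6 at p8 and 67.9 at e12), next to Mrpl36. The annotated exons of Mrps17 sum to far more bases than its median transcript (6003 against 868), which lowers its value per kilobase.

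**Figure D2:**
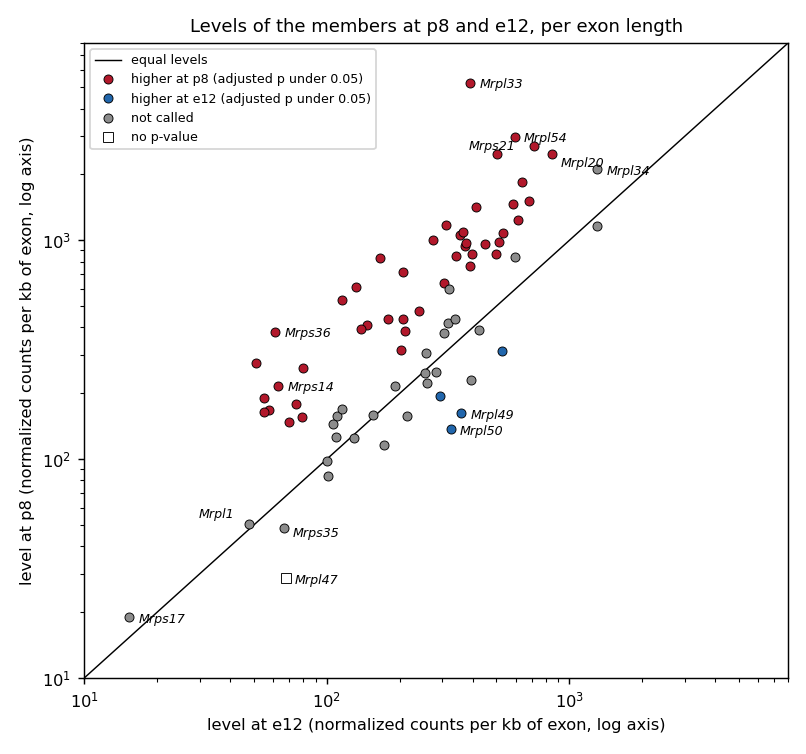
Level at p8 (vertical axis) against level at e12 (horizontal axis), both in normalized counts per kilobase of exon on log axes, for the 77 members with a base mean of 10 or more, on the deposited scale; the line marks equal levels and colours are as in the plot of fold changes. Most points lie above the line (with both stages scaled to the same sum, 31 of 78 would), Mrpl33 farthest, and Mrpl50 and Mrpl49 lie below it.

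The fold change went with the length of the mRNA, in the members and in other genes alike. Members called higher at p8 had a median mRNA length of 970 bases, against 1518 bases for those higher at e12 and 1470 for those not called. Among the 13 members of up to 700 bases the median log2 fold change was 1.88, and among 321 other genes of that length it was 1.93. Between 700 and 1000 bases the medians were 1.20 for 16 members and 1.31 for 656 other genes, and between 1000 and 1500 bases they were 0.91 for 19 members and 0.77 for 1421 other genes. Up to this length the members' medians were close to those of other genes.

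Longer members did not follow this pattern as closely. Between 1500 and 2500 bases the medians were -0.04 for 13 members and 0.34 for 3529 other genes. Between 2500 and 4000 bases they were 0.71 for 10 members and -0.16 for 4242 other genes, and above 4000 bases they were 1.01 for 6 members and -0.94 for 3710 others. Taken as 1 class, members over 1500 bases were higher at p8 in 12 of 28 and higher at e12 in 2 (42.9% and 7.14%), with a median of 0.44. Other genes over 1500 bases were higher at p8 in 26.9% and higher at e12 in 33.9%, with a median of -0.21. Across genes, which are not independent, Spearman's rho of fold change with length was -0.42 for 77 members and -0.30 for 13879 other genes. These length classes were set after the pattern had been seen, and the part of length in the members' differences was not tested.

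**Figure D3:**
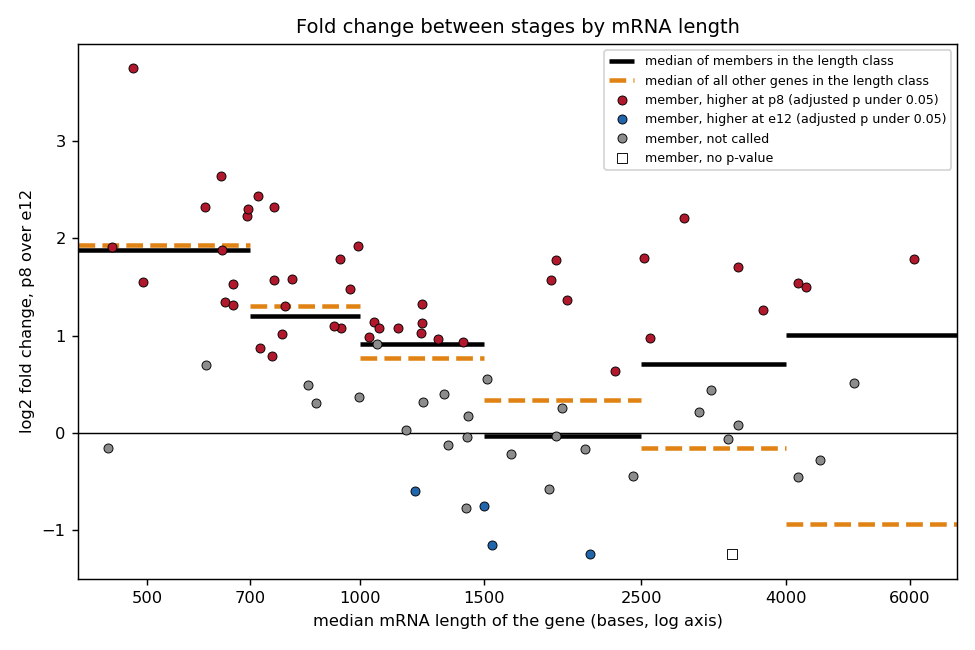
Log2 fold change of p8 over e12 (vertical axis, deposited scale) against median mRNA length (horizontal log axis, bases) of the 77 members with a base mean of 10 or more; solid black lines are the members' medians and dashed orange lines the medians of all other genes in each of 6 length classes. Another scaling of the stages would move all points alike. The lines run close together up to 1500 bases. Between 1500 and 2500 bases the members' median lies below that of other genes (-0.04 against 0.34). Above 2500 bases the members' medians are 0.71 and 1.01 and those of other genes -0.16 and -0.94.

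The other genes that mitochondrial translation needs are given by lists. Of 5 subunits of the same ribosome that carry other symbols, 3 were higher at p8 and 0 at e12 (median log2 0.97). Chchd1, a small subunit protein, had 1552 at p8 and 553 at e12 (adjusted p = 0.0119) and Aurkaip1, another of the small subunit, had 1444 at p8 and 701 at e12 (adjusted p = 0.00483), while Ptcd3, a pentatricopeptide repeat protein of the small subunit, had 526 at p8 and 825 at e12 without a call (adjusted p = 0.0862).

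The factors around the ribosome are given on the same deposited scale. Of 15 translation factors, 2 were higher at p8 and 3 were higher at e12 (median -0.21): Mtrf1l, a release factor, had 252 at p8 and 98.1 at e12 (adjusted p = 0.00104), and Oxa1l, which inserts the newly made chains into the inner membrane, had 513 at p8 and 1128 at e12 (adjusted p = 1.19e-05). Slirp, which stabilizes mitochondrial mRNAs, was also higher at p8 and Taco1, an activator of translation of a complex IV subunit, was higher at e12 (adjusted p = 0.00439 and 1.22e-04). Of 16 mitochondrial aminoacyl-tRNA synthetases with a p-value, 1 was higher at p8 and 3 were higher at e12 (median -0.25). The one was Lars2, the leucine enzyme, with 25967 at p8 and 10876 at e12 (adjusted p = 0.0121), more than all the other synthetases together. Its base mean was 15907 of the 20964 of all 17 synthetases, and whether all its reads came from its mRNA was not tested. The isoleucine enzyme Iars2 was not called (988 at p8 and 553 at e12, adjusted p = 0.0628). The glutamate enzyme Ears2 had 58.3 at p8 and 142.7 at e12 (adjusted p = 0.0143), and the alanine enzyme Aars2 had 115 at p8 and 543 at e12 (adjusted p = 0.0186).

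Factors that assemble the ribosome went both ways, with 5 of 19 higher at p8 and 4 higher at e12 (median -0.02). Mpv17l2, an inner membrane protein needed for assembly, had 901 at p8 and 198 at e12 (adjusted p = 8.00e-10), and Rbfa, which acts on small subunit RNA, had 558 at p8 and 62.7 at e12 (adjusted p = 8.83e-05). Ngrn had 158 at p8 and 477 at e12 (adjusted p = 0.00618), and Rcc1l had 88.4 at p8 and 217 at e12 (adjusted p = 0.0134); both are needed for the RNA of the large subunit. Median mRNA lengths were 1225 bases for the members, 1409 for the subunits with other symbols, 1708 for assembly factors, 2538 for translation factors and 2619 for synthetases. Since length went with the fold change, these lists are not like for like, and no test between them was run.

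**Figure D4:**
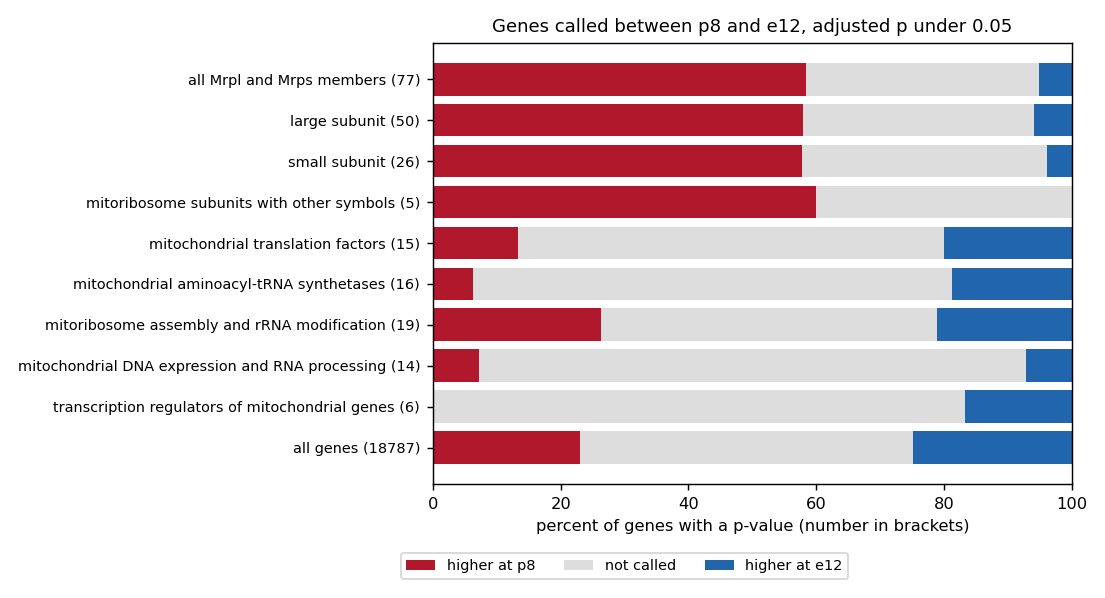
Percent of genes called higher at p8 (red, from the left), called higher at e12 (blue, from the right) and not called (grey), on the deposited scale at an adjusted p under 0.05, for the members, their subunits, 6 other lists of mitochondrial gene expression and all genes; the number of genes with a p-value is in brackets. The members and the subunits with other symbols have more red than all genes (23.0%), and the lists of translation factors and synthetases have less; with both stages scaled to the same sum the members have 7 genes higher at p8 and 24 at e12.

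Between regions of the cord at p8 no member was called. Each region was compared with the other two, so the 3 tables share all 9 samples, the brachial ones also with the comparison of stages, and are not independent. At an adjusted p under 0.05 (DESeq2 Wald test) 0 of 78 members passed in the brachial, thoracic or lumbar comparison, in which 0.261%, 0.0110% and 0.0219% of all genes did. At an unadjusted p under 0.05, 1 member was lower in brachial, 1 was lower in thoracic and 1 was higher in lumbar samples, against 6.54%, 1.45% and 2.88% of all genes in either direction. The smallest adjusted p of a member was 0.467 in the brachial table and above 0.99 in the others.

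Most fold changes of the members were small against their intervals. Regional fold changes as deposited are drawn toward 0, so they, their intervals and the levels solved from them do not bound the true differences. All 78 lay within 2-fold in the brachial comparison, as did 77 in the thoracic and 77 in the lumbar one. The median log2 fold change of a region over the other two was -0.20 in brachial, -0.05 in thoracic and 0.18 in lumbar samples. All genes with a base mean of 10 or more had medians of 0.02, -0.14 and -0.05 in the same order, and 17, 55 and 58 of the 78 members lay above these. The summed level of the members was 34625 in brachial, 36844 in thoracic and 42148 in lumbar samples, or 0.175%, 0.237% and 0.229% of everything counted. The order of thoracic and lumbar samples thus changed with the scale, and in brachial samples both values were the lowest. Of the members, 43 had their highest level in lumbar and 42 their lowest in brachial samples. The share of all genes with either pattern is not given, so these counts say nothing particular of the members. Oligodendrocyte markers held 43.0% of everything counted in brachial, 42.8% in thoracic and 46.2% in lumbar samples, and the 5 microglia markers summed to 11690 normalized counts in brachial, 13973 in thoracic and 5666 in lumbar samples. The part of either cell type in these values was not tested.

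Single members with the smallest p are given with their levels in normalized counts of the regional tables, whose scale is not that of the stage table. Mrpl37 was at 269 in brachial samples, against 545 in thoracic and 478 in lumbar ones (log2 -0.94, interval -1.67 to -0.21, adjusted p = 0.467). Mrps6 was at 401 in brachial, 634 in thoracic and 908 in lumbar samples, and Mrps28 at 207, 414 and 371 in the same order. On the other side were Mrpl22, at 157 in brachial, 117 in thoracic and 85.5 in lumbar samples, Mrps9 (192, 92.9 and 114) and Mrpl19 (427, 179.5 and 324). After adjustment none of these 6 genes was called.

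In the thoracic comparison Mrpl19 had the smallest p (log2 -1.06, interval -1.99 to -0.12, adjusted p = 0.99994), and 39.2% of its exon bases lie in the gene Gcfc2. Mrpl39 and Mrps17 followed without a call (log2 -0.52 and -0.49), and Mrpl49, Mrps30 and Mrpl37 had log2 fold changes of 0.53, 0.52 and 0.54. In the lumbar comparison Mrpl9, at 609 in lumbar, 329.7 in brachial and 332 in thoracic samples, had the smallest p (log2 0.88, interval 0.12 to 1.64, adjusted p = 0.99983). Mrpl28 and Mrps23 followed with log2 fold changes of 0.84 and 0.70, and Mrpl22, Mrpl44 and Mrpl21 had values of -0.67, -1.17 and -0.50. On the deposited scale, the 95% interval lay within a log2 fold change of 1 either way for 9 members in the brachial, 16 in the thoracic and 14 in the lumbar comparison. For most members a 2-fold difference between regions could thus be missed, and for the rest the intervals do not bound the true difference.

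**Figure D5:**
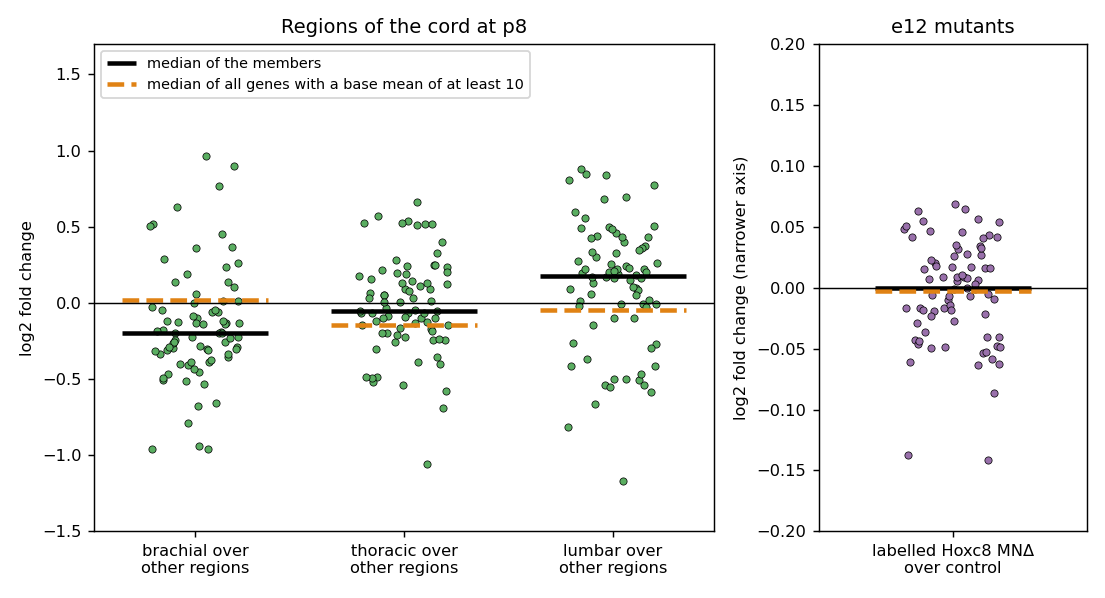
Log2 fold changes of the members between regions at p8 (left, each region over the other two, 78 genes) and between e12 libraries labelled Hoxc8 MNΔ and control (right, narrower vertical axis, 77 genes); points are genes, spread sideways at random, solid lines the members' medians and dashed orange lines the medians of all genes with a base mean of 10 or more. The members' medians are -0.20, -0.05 and 0.18 for brachial, thoracic and lumbar samples and -0.0002 for the mutants.

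The comparison of Hoxc8 MNΔ with control embryos asks which genes of brachial MNs change when the homeodomain factor Hoxc8 is lost. Hoxc8 itself, listed as 1 transcript with a base mean of 19301, was not called (log2 of MNΔ over control -0.10, 95% interval -0.26 to 0.06, adjusted p = 0.99985). Since fold changes in this table are drawn toward 0, the value does not bound the true fold change of Hoxc8, and it neither bears out the label nor goes against it. The groups are therefore named by their labels. The paper has other evidence of the loss: by staining, Hoxc8 protein was not detected in MNs of these mutants at e12.5. It also lists Hoxc8 among the transcripts lower in the mutants at a p under 0.05, a call that the deposited values used here do not give. The sources used here do not say which exons the floxed allele loses, and a transcript counted outside them would not fall.

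No member was called in the libraries labelled Hoxc8 MNΔ. Of 77 members with a p-value, 0 passed at a p under 0.05 (DESeq2 Wald test), against 0.871% of all transcripts tested, and 0 at an adjusted p under 0.05, against 0.0357%. The members' log2 fold changes lay between -0.14 and 0.07 with a median of -0.0002, and 38 were above 0. The smallest p belonged to 2 large subunit genes, Mrpl51 and Mrpl46, each with a log2 fold change of -0.14, an interval of -0.30 to 0.02 and an adjusted p = 0.99985. Mrpl45 (-0.09), Mrpl19 (-0.06) and Mrpl48 (-0.01) came next among those with lower levels, and Mrpl40 (0.07), Mrpl42 (0.06), Mrpl11 (0.06), Mrpl58 (0.06) and Mrps16 (0.05) among those with higher levels. The transcript used for Mrpl48 had a base mean of only 0.590, so its value says little.

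The deposited fold changes of this table are drawn toward 0. Their standard errors had a median of 0.00683 in transcripts with a base mean up to 1 and of 0.0804 between 100 and 1000, and none was above 0.0835. The intervals therefore hold on the deposited scale and do not bound the true fold change. For 8 members the transcript used had a base mean under 10, so the comparison says little of them, and Mrps36 is listed at 0.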

How the data were processed

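RNA sequencing of sorted spinal MNs was deposited by the authors as 5 tables of DESeq2 results, with no values per sample, so the depth per library and the SD of a level are unknown. The paper's methods state that the authors aligned unique reads to GRCm38/mm10 with HISAT2, counted them with featureCounts and ran DESeq2 on Galaxy, with no versions or covariates given. Each table holds, as deposited by the authors, a base mean (a signal: the mean count after division by size factors), a log2 fold change with its standard error, a Wald score, a p-value and an adjusted p-value. These are the only values in the files, so the authors' fold changes, errors and p-values were used as data and, Hoxc8 apart, not compared with the paper.

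Signs were turned to p8 over e12 and to Hoxc8 MNΔ over control; the deposited tables have the opposite order. P-values were adjusted again (Benjamini-Hochberg) over every feature with a p-value and called under 0.05 adjusted, or under 0.05 unadjusted for the mutants as in the study. Intervals are normal 95% intervals from the deposited standard errors. The labels list 6 e12 controls and the methods state 3 replicates, and which controls entered which table is not given. The methods call the samples of the stage comparison and of p8 biological replicates, each a pool of spinal cords, and for the mutants the origin of the replicates is not given in the sources used here. Levels by region were solved by least squares from the 3 regional tables. Genes were joined by Entrez identifier or RefSeq transcript (the one with the highest base mean per symbol), lengths and overlaps came from GENCODE M21, and whether counting used strand is not given in the sources used here. The deposited regional and mutant folds are drawn toward 0 by a prior. Standard errors of the stage comparison also have a ceiling (median 2.38 at a base mean up to 1, largest 2.39), so its folds may be drawn toward 0 as well.

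Named members were, by stage, the 8 with the smallest p in each direction and any without a p-value, by region the 3 and for mutants the 5 with the smallest p in each direction, the 5 highest and lowest levels per kilobase, and members with a known role at a functional site. Of the other lists, 2 genes a direction were named, by smallest p, and of cell type markers those with the highest base means. The members, the lists and the markers were chosen with earlier results of these data known. Scripts ran in Python 3.11.15 with pandas 2.3.3, numpy 2.4.6, matplotlib 3.10.9 and scipy 1.17.1. Only the adjustment of p-values was tested on simulated data, with large effects that were easy to recover. Alternatives were the authors' adjusted p, base mean minimums of 10 and 100, re-centring on the median gene, minimum folds of 2 and 4, other transcript choices and sample weights and, added after seeing the data, long mRNAs only and scaling to summed levels.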

Additional observations from a re-analysis of the deposited data

How the results depend on the processing

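For the comparison of p8 with e12, the direction of the family rested on the scaling. With both stages scaled to the sum of all levels, 7 members were called in the direction of p8 and 24 in that of e12, with a median of -0.24. With oligodendrocyte markers left out of the sums, 28 were called in the direction of p8 and 11 in that of e12, with a median of 0.59. With mRNAs over 1500 bases only, these counts were 12 and 2 and the median 0.44. These 3 alternatives were chosen after seeing the data. Both scalings to a sum used weights of 3 p8 and 6 e12 samples and were not repeated with 3 and 3. With a fold over 2 required, 2 members were higher at e12, and with a fold over 4, 8 were higher at p8 and 0 at e12. Medians close to 0 changed sign: the thoracic median was 0.09 after re-centring on the median gene, and the mutant median was 0.0046 with a base mean of at least 100, 0.0022 after re-centring and 0.0031 as a median over transcripts. Counts of members called kept within 1.5 times those reported with the authors' adjusted p, the base mean minimums and the re-centring. Mrpl17 lost its call with the sum of all levels (0.31), and Mrpl38, Mrps27, Mrps35 and Mrps5 gained one, higher at e12, under both scalings to a sum.

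No paired analysis was possible because the deposited tables hold no values per sample. For the same reason leaving out each replicate in turn was not run, and it is not known whether 1 library decides any value.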

Other observations

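Genes that copy and transcribe mitochondrial DNA or process its RNAs are plotted in the report by their shares called, without their genes. Of 14 of them, 1 was higher at p8 and 1 was higher at e12 on the deposited scale (DESeq2 Wald test, adjusted p under 0.05), with a median log2 fold change of -0.13. Hsd17b10, a subunit of mitochondrial RNase P, had 1018 normalized counts at p8 and 496 at e12 (adjusted p = 2.34e-04). Elac2, which cuts the 3′ ends of tRNAs, had 460 at p8 and 922 at e12 (adjusted p = 1.33e-06). Polg, the mitochondrial DNA polymerase, and Supv3l1, an RNA helicase, were not called (adjusted p = 0.167 and 0.142).

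Of 9 transcription regulators of mitochondrial genes, 6 had a p-value and 1 of these was called. Yy1 had 204 at p8 and 889 at e12 (log2 -2.13, adjusted p = 0.00705). Myc had 314 at p8 and 668 at e12 without a call (adjusted p = 0.128), and Gabpa, whose product binds the ETS motif, had 518 at p8 and 513 at e12 (log2 0.01, interval -1.41 to 1.44).

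Some members had very different base means in the tables of genes and of transcripts. Mrpl36 had a base mean of 0.461 in the comparison of stages and 249 in that of mutants, and Mrps17 had 99.3 and 704. Mrps23, listed as 6 transcripts in the mutant table, had 588 in the comparison of stages and at most 0.629 for a transcript in that of mutants, and Mrpl55, listed as 5 transcripts, had 397 and at most 0.468. The 14 members listed as more than 1 transcript had a median base mean of 12.2 in the mutant table, and the 64 listed as 1 transcript had 503. The cause was not tested.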
